A study of Mus musculus with 28 samples.

Results

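The genes described here rose and fell again within the first days after mouse embryonic stem cells lost the signals that hold them in the naive state. They are 48 of the 30386 genes in the deposited expression table. A gene was taken when its mean level at 48 h after withdrawal was at least 10 CPM, the deposited unit of counts scaled to a common library size, and when that mean, with 1 CPM added to every mean, was at least 3 times the mean before withdrawal and at least 3 times the mean at 120 h. Of the 54 genes that met these values, 6 were left out by symbol, namely Utf1 and 5 genes with Gm or Rik symbols. The genes were thus chosen by their mean levels at 2iL, 48 h and 120 h, and these are given as a description, with no test.

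E14, an established mouse embryonic stem cell line grown on gelatin, was kept in the serum-free medium N2B27 with 2iL, which is CHIR99021 (an inhibitor of GSK3), PD0325901 (an inhibitor of MEK) and the cytokine LIF. All 28 libraries come from this line and medium, and 4 libraries, numbered as experiments 1 to 4, make up each of 7 groups. The groups are cells in 2iL (called 2iL), cells 24, 48, 96 or 120 h after 2iL was removed (24 h, 48 h, 96 h and 120 h), and cells given 2iL again for 24 h after 48 or 96 h without it (48 h + 2iL and 96 h + 2iL). The libraries are of the 3′ digital type, which count the ends of polyadenylated transcripts in bulk RNA, so fewer cells with a transcript and less transcript per cell cannot be told apart. The labels do not say whether the experiments are separate cultures, and the p-values measure only the spread between these libraries.

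Naive embryonic stem cells resemble the epiblast of the blastocyst before implantation. When inhibition of MEK and GSK3 and supply of LIF end, they leave that state and pass through a formative state, like the epiblast around implantation, in which genes for new DNA methylation and a set of transcription factors are switched on before lineage genes. The factors Otx2, Pou3f1 and Utf1, the growth factor Fgf5 and the methyltransferases Dnmt3a and Dnmt3b are its usual markers.

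Gene counts ranged from 1554830 to 2828694 per library. The 6 genes used to identify embryonic stem cells (Pou5f1, Sox2, Nanog, Zfp42, Esrrb and Tfcp2l1) summed to 1552 to 2034 CPM in 2iL and to 299 to 416 CPM at 120 h. In experiment 3 the libraries at 96 h, 120 h and 96 h + 2iL stood apart. The 48 genes summed to 683 CPM in its 96 h library and to 1381 to 1760.1 CPM in the other 96 h libraries. They summed to 334 against 538 to 875 CPM at 120 h, and to 245 against 397 to 583 CPM in 96 h + 2iL. The same libraries were the highest of their groups for 15 neural progenitor markers. These summed to 554 against 169.6 to 273 CPM at 96 h, to 969.6 against 382 to 718 CPM at 120 h and to 1118 against 227 to 621 CPM in 96 h + 2iL. The 16 naive pluripotency genes were lowest in that experiment, at 159 against 284 to 449.9 CPM at 96 h and 187 against 534 to 1148 CPM in 96 h + 2iL. Each count of called genes among the 48 is given with and without experiment 3. Over all libraries, 10 markers each of primitive endoderm, trophoblast and fibroblasts (feeder cells) summed to 320.0 to 904, 25.6 to 278 and 156 to 510.4 CPM. In the trophoblast list Elf5 had 0 counts in every library of 6 of the 7 groups, while Cdx2, a caudal factor of trophoblast and of posterior embryo, was higher in 48 h + 2iL (5.76 ± 0.73, adjusted p = 3.16e-07) and in 96 h + 2iL (7.11 ± 0.70, adjusted p = 7.09e-08) than at 96 h (log2 fold change ± SE, edgeR). Tfap2c, an AP-2 factor, was also higher in both (3.17 ± 0.46, adjusted p = 2.75e-06 and 1.91 ± 0.47, adjusted p = 0.00683). The trophoblast list summed to 35.8 to 91.9 CPM at 96 h, 101 to 172 CPM in 48 h + 2iL and 53.6 to 278 CPM in 96 h + 2iL. In every experiment both return libraries were above the 96 h library in this sum. Single genes of the list differed in direction. Of its 6 tested genes, 2 were higher and 3 lower in 48 h + 2iL than at 96 h (median -2.28). In 96 h + 2iL, 2 were higher and 0 lower (median -0.39). Over all genes 11.3% were higher and 13.4% lower in the first comparison, and 4.02% and 5.23% in the second.

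The stretches upstream of 4 of these genes are shown because they let the reader see the sequence context of the marker gene, of the cofactor of DNA methylation, and of a forkhead factor and a stress gene whose start regions hold a searched motif. Each holds the 250 bases before the annotated start, 5′ to 3′ on the strand of the gene, from RefSeq on GRCm38.p6, with matches in capitals. Tbx4, chr11:85896515-85896764, plus strand, which lies inside the annotated gene and holds no match, is the first. Dnmt3l, chr10:78049592-78049841, plus strand, an internal start, holds the E-box CACGTG at position -44 from the start. Foxd3, chr4:99656049-99656298, plus strand, holds the E-box at -217. Gadd45g, chr13:51846425-51846674, plus strand, holds the E-box at -142 and the POU octamer ATTTGCAT at -103.
Tbx4: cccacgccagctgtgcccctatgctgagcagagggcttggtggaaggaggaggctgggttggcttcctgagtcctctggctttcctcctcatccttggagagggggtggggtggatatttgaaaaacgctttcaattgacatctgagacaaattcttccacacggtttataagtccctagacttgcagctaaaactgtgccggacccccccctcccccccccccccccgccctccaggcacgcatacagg
Dnmt3l: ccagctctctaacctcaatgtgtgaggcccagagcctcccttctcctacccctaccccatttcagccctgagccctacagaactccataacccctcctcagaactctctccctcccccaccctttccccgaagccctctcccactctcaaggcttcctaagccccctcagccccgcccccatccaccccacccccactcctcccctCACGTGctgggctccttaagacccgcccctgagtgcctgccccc
Foxd3: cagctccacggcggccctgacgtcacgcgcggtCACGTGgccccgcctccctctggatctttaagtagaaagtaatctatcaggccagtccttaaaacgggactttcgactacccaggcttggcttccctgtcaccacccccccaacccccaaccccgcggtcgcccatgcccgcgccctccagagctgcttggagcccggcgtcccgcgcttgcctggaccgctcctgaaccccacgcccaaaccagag
Gadd45g: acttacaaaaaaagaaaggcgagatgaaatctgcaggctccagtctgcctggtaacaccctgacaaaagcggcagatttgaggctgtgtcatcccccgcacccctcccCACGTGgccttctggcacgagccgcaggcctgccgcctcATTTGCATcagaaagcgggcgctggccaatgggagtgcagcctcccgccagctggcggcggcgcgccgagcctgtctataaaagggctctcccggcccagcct

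Start windows of 300 bases, 250 before and 50 after the start, were found for 34 of the 48 genes, 47 windows in all, and were searched on both strands for 6 short motifs alongside the 32851 windows of all genes. The E-box CACGTG was in 10.6% of the 47 windows (Dnmt3a, Dnmt3l, Foxd3, Gadd45g and Taf7l) and in 7.15% of all windows. The ETS motif CCGGAAG was in 10.6% (Akr1b8, Dnaic1, Prr19, Rasgrp2 and Tstd1) against 8.86%, and the T-box motif GGTGTGA in 6.38% (Bcl11a, Myb and Pdzk1) against 3.98%. The POU octamer ATTTGCAT was in 4.26% (Gadd45g and Sned1) against 1.74%, the OTX motif TAATCC in 4.26% (D1Pas1 and Pla2g10) against 7.06%, and the TCF/LEF motif CTTTGAT in 0% against 3.73%. No motif overlapped another in the printed stretches. The windows of these genes had a median GC content of 61.3% and a median ratio of observed to expected CpG of 0.476, where all windows had 52.7% and 0.384. These are letters in a window and not sites of binding, and genes with several starts enter several times.

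The 48 genes were of modest abundance. Their means at 48 h ran from 10.1 CPM (Cldn5) to 577 CPM (Dppa4) with a median of 24.5, and 17 of them were under 20 CPM while 6 were at 100 CPM or more (Dppa4, Dnmt3a, Dnmt3l, Rasgrp2, Rarg and Cgnl1). In experiments 1 to 4 the genes summed to 653, 618, 481 and 593 CPM in 2iL, 2371, 2482, 2474 and 2590.0 CPM at 24 h and 3089, 3235, 3505 and 3576 CPM at 48 h. The sums then were 1760.1, 1699, 683 and 1381 CPM at 96 h and 875, 787, 334 and 538 CPM at 120 h. With 2iL given again they were 925, 899, 771 and 951 CPM in 48 h + 2iL and 583, 560.2, 245 and 397 CPM in 96 h + 2iL. The groups 24 h and 48 h did not overlap with each other or with any other group, and 96 h stood between them and the rest only outside experiment 3.

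As a share of its own 48 h mean, the median gene was at 14.5% in 2iL, 72.4% at 24 h, 35.8% at 96 h, 17.1% at 120 h, 20.4% in 48 h + 2iL and 10.7% in 96 h + 2iL. The label of a peak at 48 h held for most but not all of the genes. The highest group mean was at 48 h for 36 of the 48, at 24 h for 11 (Dnmt3l, Enox1, Kndc1, Gfod1, Tcf15, Akr1b8, Prss50, Foxd3, Slc7a7, D1Pas1 and Zfp981) and in 96 h + 2iL for 1 (Gli1). All 48 h libraries lay above all 24 h libraries for 18 genes, which 7.28% of the 11080 genes with enough counts for a test also did, and the reverse held only for Dnmt3l among the 48 (4.88% of all genes). All 48 h libraries lay above all 96 h libraries for 34 genes (9.12% of all genes). These counts use the 48 h levels that chose the genes and are given as a description.

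**Figure D1:**
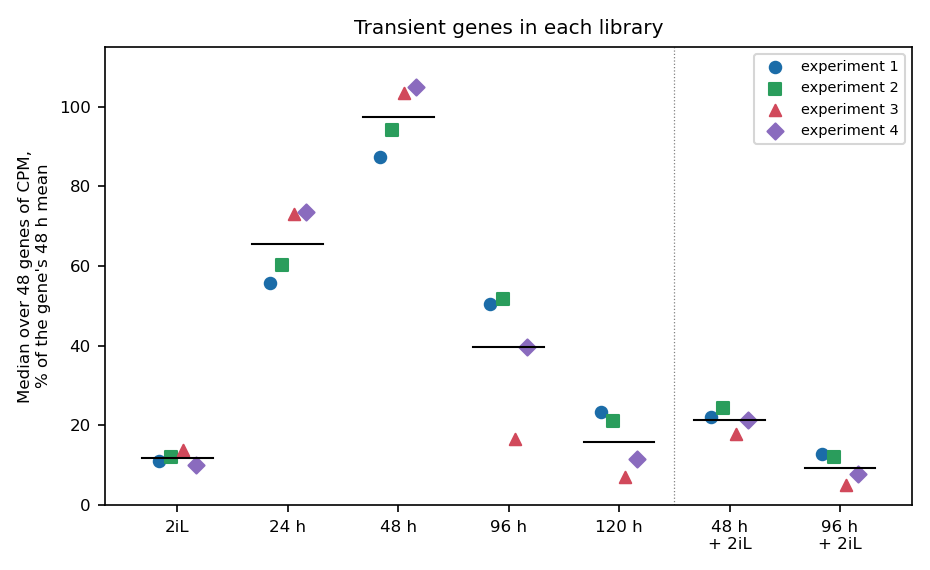
Median over the 48 genes of each library's CPM, as a percentage of the gene's own mean at 48 h (vertical axis), for each of the 28 libraries by group (horizontal axis). Points are libraries, marked by experiment, and bars are group means. The libraries rise through 24 h to 48 h and fall again, and experiment 3 is the lowest library at 96 h (16.5%), 120 h (7.04%) and 96 h + 2iL (4.98%).

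Tbx4 (chromosome 11, 85886422 to 85916097, plus strand, GENCODE M21 on GRCm38), the T-box transcription factor known for the hindlimb and the lung, was nearly absent before withdrawal. In experiments 1 to 4 it was at 0, 0.429, 0 and 0 CPM in 2iL, 1.78, 4.76, 4.78 and 10.9 CPM at 24 h and 10.9, 12.03, 21.8 and 15.6 CPM at 48 h. It was then at 7.46, 4.31, 6.43 and 2.103 CPM at 96 h and 3.8002, 0.521, 0.499 and 1.93 CPM at 120 h. With 2iL given again the levels were 0.979, 1.27, 1.65 and 0.916 CPM in 48 h + 2iL and 0, 0.832, 0 and 0.629 CPM in 96 h + 2iL. The 48 h libraries overlapped only with the highest 24 h library (experiment 4), and every library of 48 h + 2iL and of 96 h + 2iL was under every library of 96 h. The test of 96 h + 2iL against 96 h gave a log2 fold change of -3.56 ± 0.78, adjusted p = 0.00278 (edgeR quasi-likelihood test, adjusted over 11080 genes, as are all adjusted p-values here), and -3.07 ± 0.88, adjusted p = 0.0206, without experiment 3. The test of 48 h + 2iL against 96 h gave -1.96 ± 0.63, adjusted p = 0.0209, and -2.02 ± 0.76, adjusted p = 0.0594, without experiment 3, so this call was lost. With the libraries of 96 h and 96 h + 2iL alone, Tbx4 did not pass the count filter. It entered that test through its levels in other groups, 48 h among them, which chose it. With the libraries of 96 h and 48 h + 2iL alone, Tbx4 was not called. Between 96 h and 24 h no change was called (-0.24 ± 0.54, adjusted p = 0.768).

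Of 18 T-box family genes listed, 6 had enough counts for a test. Tbx3, a factor of the naive state, was at 159 ± 29.5 CPM in 2iL (SD, n = 4) and 8.97 ± 2.84 CPM at 48 h. Tbx3 was higher in 48 h + 2iL than at 96 h (3.05 ± 0.31, adjusted p = 7.05e-09). T (Brachyury), the primitive streak factor, was at 19.1 ± 6.399 CPM in 2iL, 0.635 ± 0.623 CPM at 48 h and 76.4 ± 28.9 CPM in 48 h + 2iL, the last above its level at 96 h (4.78 ± 0.68, adjusted p = 2.51e-06). Mga, a large transcription factor with a T-box, was at 238 ± 55.1 and 231 ± 22.3 CPM. Of the 6, 3 were higher and only Tbx4 was lower in 48 h + 2iL than at 96 h, where all genes gave 11.3% higher and 13.4% lower calls.

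Genes of new DNA methylation were among the most abundant. Dnmt3a (chromosome 12, 3806007 to 3914443, with the antisense gene Dnmt3aos on the other strand), a methyltransferase that sets new marks, was at 30.04, 27.5, 31.1 and 32.04 CPM in 2iL, 113, 125, 169 and 149 CPM at 24 h and 389, 361, 534 and 480.5 CPM at 48 h. It was at 232, 229.9, 116 and 245 CPM at 96 h, 148, 149, 128 and 145 CPM at 120 h, 81.8, 73.6, 109.6 and 92.5 CPM in 48 h + 2iL and 109, 108, 49.6 and 84.2 CPM in 96 h + 2iL. No library outside 48 h reached the lowest 48 h library, and no library of any later group returned to the 2iL range. Dnmt3l (chromosome 10, 78041947 to 78063622), the cofactor of these enzymes without activity of its own, ran earlier, at 76.03, 49.4, 12.4 and 13.2 CPM in 2iL, 440.3, 405, 326 and 347 CPM at 24 h and 276, 302, 195 and 287 CPM at 48 h. It fell to 61.1, 66.98, 15.2 and 39.1 CPM at 96 h and was at 17.5, 15.1, 4.99 and 8.699 CPM at 120 h, 68.1, 73.6, 41.8 and 47.2 CPM in 48 h + 2iL and 20.4, 16.2, 4.51 and 5.66 CPM in 96 h + 2iL. Every 24 h library of Dnmt3l lay above every 48 h library, and the 96 h level was below the 24 h level (-3.15 ± 0.40, adjusted p = 1.9e-07). Between the same groups Dnmt3a was not called (0.46 ± 0.20, adjusted p = 0.0685), and without experiment 3 it was called higher at 96 h (0.76, adjusted p = 0.000125). Both genes were lower in 96 h + 2iL than at 96 h. The log2 fold change was -1.24 ± 0.20, adjusted p = 0.000111 for Dnmt3a and -1.94 ± 0.48, adjusted p = 0.0071 for Dnmt3l. These groups also differ by 24 h of culture. As a share of its 48 h mean, Dnmt3l was at 4.41% in 96 h + 2iL and at 4.36% at 120 h without 2iL. For Dnmt3a these shares were 19.9% and 32.3%. The other methyltransferase of the pair, Dnmt3b, is not among the 48, with 986 ± 135 CPM at 48 h and 482 ± 283 CPM at 120 h.

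Transcription factors of the epiblast formed a further group. Foxd3, a forkhead factor of the epiblast and neural crest, was at 7.98, 5.15, 3.18 and 6.29 CPM in 2iL, 25.5, 15.2, 23.9 and 28.96 CPM at 24 h, 16.9, 28.2, 15.3 and 28.7 CPM at 48 h and 15.9, 13.3, 0.918 and 10.9 CPM at 96 h. In 96 h + 2iL it was at 1.99, 0.416, 0.501 and 0 CPM, below every 2iL library, and the fall from 96 h was among the largest (-3.70 ± 0.74, adjusted p = 0.00118). Tcf15, a helix-loop-helix factor expressed as cells prime for differentiation, was at 8.45, 14.6, 11.3 and 20.03 CPM in 2iL, 35.01, 51.5, 72.9 and 111 CPM at 24 h, 37.7, 40.3, 49.5 and 90.4 CPM at 48 h and 21.4, 12.5, 3.21 and 18.1 CPM at 96 h. Tcf15 was lower at 96 h than at 24 h (-2.39 ± 0.37, adjusted p = 5.7e-06). Grhl2, a grainyhead factor of epithelia, was at 4.22, 3.01, 2.48 and 6.87 CPM in 2iL, 9.495, 18.2, 10.8 and 23.8 CPM at 24 h, 49.6, 46.7, 33.01 and 37.1 CPM at 48 h and 33.6, 28.99, 4.13 and 17.7 CPM at 96 h. Its 48 h libraries lay above all 24 h libraries, and it fell in 96 h + 2iL against 96 h (-2.73 ± 0.55, adjusted p = 0.00123). Dppa4, a chromatin protein of pluripotent and germ cells, was the most abundant of the 48, at 152, 169.6, 128 and 200.3 CPM in 2iL, 470.0, 489, 428 and 489 CPM at 24 h, 516, 573, 581 and 638 CPM at 48 h and 217, 257, 65.7 and 182 CPM at 96 h. It was at 188, 205, 164 and 204 CPM in 48 h + 2iL, overlapping with 2iL, and at 97.4, 77.8, 15.5 and 47.8 CPM in 96 h + 2iL, with every library below every 2iL library.

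Of the 20 listed formative epiblast genes, 5 are among the 48 (Dnmt3a, Dnmt3l, Foxd3, Grhl2 and Tcf15). In the list as a whole, 14 fell and 2 rose in 96 h + 2iL against 96 h with a median log2 fold change of -1.47, where 5.23% of all genes fell, 4.02% rose and the median was 0.00. In 96 h against 24 h, 9 rose and 4 fell (median 0.59), where 18.9% of all genes rose and 16% fell, and the 4 that fell were Dnmt3l, Tcf15, Foxd3 and Etv4. Among listed genes that the rule leaves out by name, Fgf5, a growth factor of the epiblast, was at 23.7 ± 13.4 CPM at 48 h and 43.6 ± 22.3 CPM at 96 h, the POU factor Pou3f1 at 417 ± 70.5 and 432 ± 119 CPM, and the homeobox factor Otx2 at 331 ± 48.8 and 288 ± 37.7 CPM (SD, n = 4). Their means at 120 h were 16.8, 206 and 204 CPM, so none of them met the ratio to 120 h either.

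**Figure D2:**
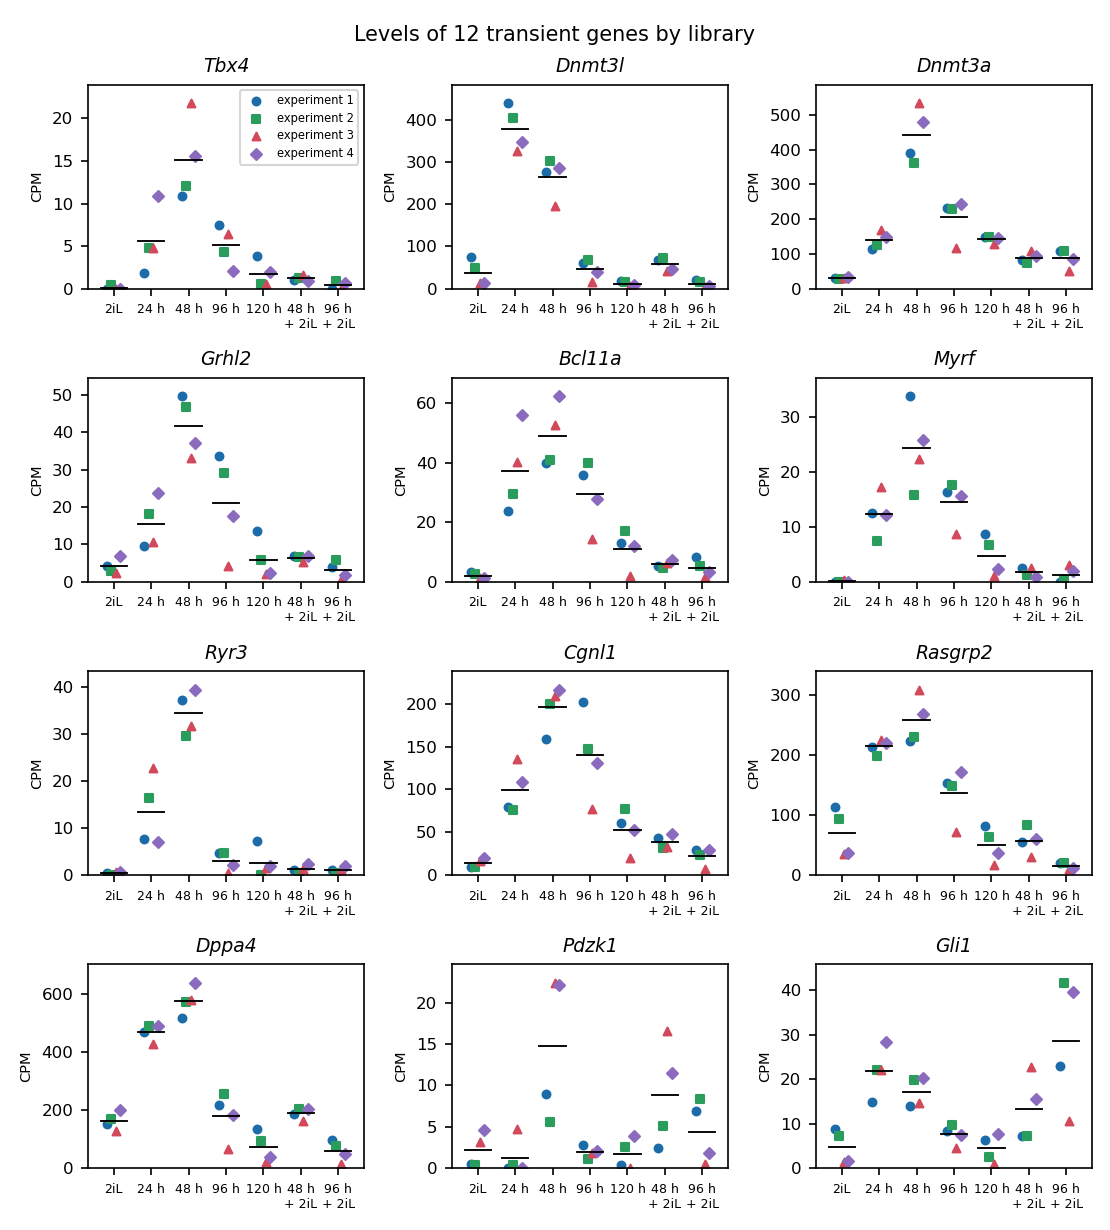
Levels of 12 of the 48 genes in all 28 libraries, in CPM on linear axes that start at 0 and differ between panels. Points are libraries, marked by experiment, and bars are the means of 4 libraries. Dnmt3l is highest at 24 h, Pdzk1 stays low at 24 h, and Gli1 reaches its highest mean (28.6 CPM) in 96 h + 2iL.

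Other transcription factors included regulators known from blood and the nervous system. Bcl11a, a zinc finger factor known for silencing fetal globin, was at 3.29, 2.58, 1.41 and 1.14 CPM in 2iL, 23.7, 29.5, 40.03 and 55.98 CPM at 24 h, 39.7, 40.7, 52.5 and 62.2 CPM at 48 h and 35.9, 39.96, 14.2 and 27.8 CPM at 96 h. Its libraries were at 4.65 to 7.33 CPM in 48 h + 2iL. Myb, a factor of blood progenitors, was at 16.02, 11.7, 29.3 and 18.7 CPM at 24 h, 59.6, 47.2, 106 and 65.8 CPM at 48 h and 53.2, 49.7, 17.9 and 37.4 CPM at 96 h. Its 24 h libraries overlapped with the 2iL libraries (9.16 to 17.6 CPM) and lay below all 48 h libraries, and it was the only gene of the 48 called higher at 96 h than at 24 h (0.98 ± 0.38, adjusted p = 0.0407). That call was lost when any library of either group other than those of experiment 3 was left out, and it was 1.51 ± 0.31, adjusted p = 0.000402, without experiment 3. Myrf, a membrane-bound factor of myelin genes, was nearly absent in 2iL (0, 0, 0.354 and 0 CPM) and was at 33.8, 15.7, 22.4 and 25.7 CPM at 48 h and 16.3, 17.6, 8.73 and 15.6 CPM at 96 h. Neurod1, a neuronal helix-loop-helix factor, was at 0.939, 1.72, 1.41 and 1.72 CPM in 2iL, 10.7, 15.2, 17.9 and 15.4 CPM at 24 h and 21.8, 32.9, 52.5 and 46.1 CPM at 48 h. These groups did not overlap.

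Rarg, a nuclear receptor for retinoic acid, was already well expressed in 2iL at 64.8, 53.3, 55.5 and 78.96 CPM and reached 204, 256, 182 and 268 CPM at 24 h and 290.4, 255, 199 and 219 CPM at 48 h. Gadd45g, a stress-induced gene of growth arrest, was at 5.63, 12.02, 7.43 and 1.14 CPM in 2iL, 23.7, 43.3, 44.8 and 42.5 CPM at 24 h, 78.4, 97.7, 97.3 and 96.9 CPM at 48 h and 51.8, 57.6, 15.6 and 19.8 CPM at 96 h. In 48 h + 2iL it was at 21.1, 16.9, 44.2 and 48.1 CPM and in 96 h + 2iL at 26.3, 19.1, 36.1 and 22.004 CPM, above every 2iL library in both. Taf7l, a germ cell form of a TFIID subunit, was at 2.97 to 5.79 CPM at 24 h and 20.8, 7.87, 14.1 and 7.78 CPM at 48 h. Gli1, a factor and target of the Hedgehog pathway, followed another course. It was at 8.92, 7.301, 1.41 and 1.72 CPM in 2iL, 14.8, 22.1, 22.1 and 28.3 CPM at 24 h, 13.9, 19.9, 14.7 and 20.3 CPM at 48 h, 8.39, 9.79, 4.59 and 7.57 CPM at 96 h and 6.46, 2.61, 0.998 and 7.73 CPM at 120 h. It was then at 7.34, 7.19, 22.7 and 15.6 CPM in 48 h + 2iL and 22.9, 41.6, 10.5 and 39.6 CPM in 96 h + 2iL, where each library was above every 96 h library. Of the 48 only Gli1 rose in 96 h + 2iL against 96 h (1.89 ± 0.46, adjusted p = 0.00647), and without experiment 3 the change was 1.99 ± 0.39 (adjusted p = 0.000619).

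Several of the genes act in calcium and Ras-type signalling, a grouping made after their values were seen. Ryr3, a calcium release channel, had the largest ratio of 48 h to the higher of 2iL and 120 h (9.705). It was at 0.469, 0, 0.707 and 0.572 CPM in 2iL, 7.71, 16.5, 22.7 and 7.08 CPM at 24 h, 37.2, 29.6, 31.8 and 39.5 CPM at 48 h and 4.66, 4.701, 0.459 and 2.103 CPM at 96 h. Its 48 h libraries were clear of both neighbours. Calml4, a calmodulin-like protein, had 0, 1.299, 1.19 and 6.43 CPM at 24 h, 7.94, 20.4, 36.5 and 25.7 CPM at 48 h and 11.7, 9.01, 1.84 and 7.99 CPM at 96 h, a wide spread at 48 h. Rasgrp2, a calcium-regulated activator of the GTPase Rap, was at 114, 92.8, 35.4 and 36.6 CPM in 2iL, 213, 199, 226 and 220.1 CPM at 24 h, 224, 231, 309 and 268 CPM at 48 h and 154, 149, 72.6 and 171 CPM at 96 h. It dropped to 19.4, 20.8, 9.52 and 11.9 CPM in 96 h + 2iL (-3.14 ± 0.40, adjusted p = 1.89e-06), below every 2iL library. The calcium-sensitive kinase Ptk2b was at 14.8 to 23.9 CPM at 24 h, 9.93 to 30.1 CPM at 48 h and 5.97 to 17.3 CPM at 96 h, all overlapping. Rasip1, a Ras-interacting protein of endothelium, was at 37.7, 40.7, 87.2 and 55.6 CPM at 48 h and 55.5, 38.4, 14.2 and 29.9 CPM at 96 h. The others were Kndc1, an exchange factor for Ras, Ppp1r14a, an inhibitor of myosin phosphatase, the G protein subunit Gngt2 and the peptide hormone gene Calca, with 48 h means of 13.5 to 29.2 CPM and 24 h means at 49.1% to 113% of them.

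Genes of the cell surface, junctions and cytoskeleton differed in timing. Spn, the sialoglycoprotein CD43 of leukocytes, was at 7.12, 12.99, 7.77 and 7.72 CPM at 24 h, 24.3, 25.9, 18.3 and 20.3 CPM at 48 h and 9.33, 3.92, 0.459 and 1.26 CPM at 96 h, with no overlap of 48 h with either. Cgnl1, a protein of cell junctions, was at 8.92, 9.45, 16.6 and 19.5 CPM in 2iL, 79.5, 75.8, 135 and 109 CPM at 24 h, 158, 199, 209 and 217 CPM at 48 h and 202, 148, 77.6 and 131 CPM at 96 h. Of the 48 genes it had the largest share of its 48 h mean at 96 h (71.3%), and its 96 h library of experiment 1 was above the lowest 48 h library. It fell to 29.8, 23.3, 7.02 and 28.9 CPM in 96 h + 2iL (-2.67 ± 0.34, adjusted p = 1.81e-06). Nefh, the heavy neurofilament chain, was at 15.5, 18.04, 16.98 and 23.5 CPM in 2iL, 96.3, 102, 76.04 and 91.6 CPM at 48 h, 42.1, 37.2, 23.98 and 38.9 CPM in 48 h + 2iL and 9.94, 9.15, 7.52 and 10.1 CPM in 96 h + 2iL. Its 96 h + 2iL libraries lay below all 2iL libraries and its 48 h + 2iL libraries above them. Sned1, a matrix protein, was at 20.5, 19.98, 3.21 and 6.73 CPM at 96 h and 1.99, 1.25, 0 and 1.26 CPM in 96 h + 2iL. Tor3a, an ATPase of the endoplasmic reticulum, was at 37.3, 43.5, 18.4 and 36.2 CPM at 96 h, 6.36, 8.88, 6.201 and 5.04 CPM in 48 h + 2iL and 5.96, 4.16, 3.01 and 1.89 CPM in 96 h + 2iL. Neither return group overlapped with 96 h. Cldn5, a claudin of tight junctions, was at 3.97, 18.5, 10.02 and 7.78 CPM at 48 h, the lowest mean of the 48. Dnaic1, a dynein chain of cilia, was the most even gene at 48 h (12.96 to 14.4 CPM), and Ccno, a cyclin of ciliated cells, was among the least even (4.96 to 20.6 CPM). The exocyst-related Exoc3l had 55.6 to 122 CPM at 24 h and 70.1 to 105 CPM at 48 h.

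Transporters and enzymes made up most of the rest. Slc27a2, which activates and carries fatty acids, was at 0.939, 2.15, 2.83 and 2.86 CPM in 2iL, 35.6, 28.2, 44.2 and 41.2 CPM at 24 h, 41.7, 52.3, 64.3 and 48.5 CPM at 48 h and 28.9, 43.5, 16.1 and 23.98 CPM at 96 h. Slc7a7, an amino acid transporter, was at 22.3, 24.5, 30.7 and 26.3 CPM at 48 h and still at 13.7, 13.1, 17.8 and 21.1 CPM in 48 h + 2iL. Pdzk1, a scaffold protein of membrane transporters, was the exception at 24 h. It was at 0.469, 0.429, 3.18 and 4.58 CPM in 2iL, 0, 0.433, 4.78 and 0 CPM at 24 h, 8.93, 5.55, 22.4 and 22.1 CPM at 48 h and 2.45, 5.08, 16.5 and 11.4 CPM in 48 h + 2iL. Pdzk1 was the only gene of the 48 whose 24 h mean was below its 2iL mean. The secreted phospholipase Pla2g10, the aldo-keto reductase Akr1b8, the hydrolase Urah, the oxidase Enox1 and the glyoxalase-domain gene Glod5 had 48 h means of 17.2, 24.03, 38.8, 18.9 and 24.6 CPM. Their 96 h means were 19.8%, 22.2%, 29.1%, 19.2% and 5.87% of these. Tstd1, a sulfurtransferase-like gene, was at 5.46 to 18.3 CPM, Gfod1, an oxidoreductase-like gene, at 7.07 to 14.4 CPM, and Prr19 at 25.7 to 37.03 CPM at 48 h.

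The germ cell genes Prss50, a testis protease, and D1Pas1, a helicase, and the zinc finger gene Zfp981 were higher in mean at 24 h than at 48 h. Zfp981 was at 3.75, 3.44, 2.83 and 4.01 CPM in 2iL, 20.2, 13.4, 17.3 and 19.9 CPM at 24 h, 6.95, 9.26, 12.97 and 20.9 CPM at 48 h and 1.399, 3.13, 0 and 0.421 CPM at 96 h. In 96 h + 2iL only experiment 2 had a count (0.832 CPM). D1Pas1 was at 6.53, 11.3, 17.9 and 16.7 CPM at 24 h, 11.9, 12.5, 11.2 and 10.8 CPM at 48 h and 1.87, 1.96, 0.459 and 0 CPM at 96 h. D1Pas1 is a copy of a gene on the X chromosome and Zfp981 belongs to a family of similar genes, so their counts are uncertain because reads that aligned at more than 1 place were not counted. Platr17, a pluripotency-associated transcript that GENCODE M21 lists as protein coding, was at 37.5, 33.1, 30.1 and 28.6 CPM in 2iL, 76.6, 90.5, 85.4 and 48.3 CPM at 24 h, 82.9, 96.7, 104 and 112 CPM at 48 h and 41.96, 29.8, 7.81 and 18.5 CPM at 96 h. Its 96 h + 2iL libraries (1.504 to 14.4 CPM) were all below its 2iL libraries.

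The comparison of 96 h with 24 h asks how the sides of the peak differ, in groups that did not choose the genes. The sides are not evenly spaced, since 96 h is farther in time from 48 h than 24 h is. Each also lies next to a group that chose the genes, 24 h next to 2iL and 96 h next to 120 h. Of the 48 genes, 22 were lower and 1 (Myb) was higher at 96 h, where 16% of the 11080 genes tested were called lower and 18.9% higher. The median log2 fold change of the 48 was -0.84 (-0.47 without experiment 3), and that of all genes was 0.02. With the libraries of these 2 groups alone, 44 of the 48 passed the count filter, and 22 were lower and 1 higher (13.8% and 15.9% of all genes then tested). The others entered the main test through the levels of other groups, 48 h among them. In the same comparison 8 of 11 tested neural progenitor genes rose and 0 fell (median 3.36), and 14 of 16 naive genes fell and 0 rose (median -2.44). The falls that were largest without overlap were those of Zfp981 (-3.82 ± 0.57, adjusted p = 3.2e-06), D1Pas1 (-3.63 ± 0.63, adjusted p = 3.15e-05), Glod5 (-3.42 ± 0.55, adjusted p = 1.05e-05), Dnmt3l and Enox1 (-2.86 ± 0.47, adjusted p = 1.38e-05). The other genes that fell were Prss50, Tcf15, Akr1b8, Pla2g10, Ryr3, Gfod1, Urah, Platr17, Gli1, Prr19, Exoc3l, Dppa4, Spn, Foxd3, Slc7a7, Rarg and Tor3a. Genes such as Neurod1 (0.10 ± 0.34), Nefh (-0.11 ± 0.23) and Gadd45g (-0.19 ± 0.39) were not called, with adjusted p-values of 0.856, 0.754 and 0.748. Within experiments 1 to 4, the 96 h library was the lower of the pair for 28, 29, 46 and 38 of the 48 genes. For counts within single experiments, here and below, the share over all genes was not computed, and they are a description. Without experiment 3, 19 genes were called lower (Foxd3, Spn and Tor3a were lost) and 3 higher (Myb, Cgnl1 and Dnmt3a). Over all genes 1469 were then lower and 1658 higher. When libraries were scaled by their totals alone and not by TMM (the trimmed mean scaling used here), the median of all genes moved to 0.13. The calls over all genes then moved from 2099 higher and 1771 lower to 2536 and 1390, and 19 of the 48 were lower and 2 higher.

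**Figure D3:**
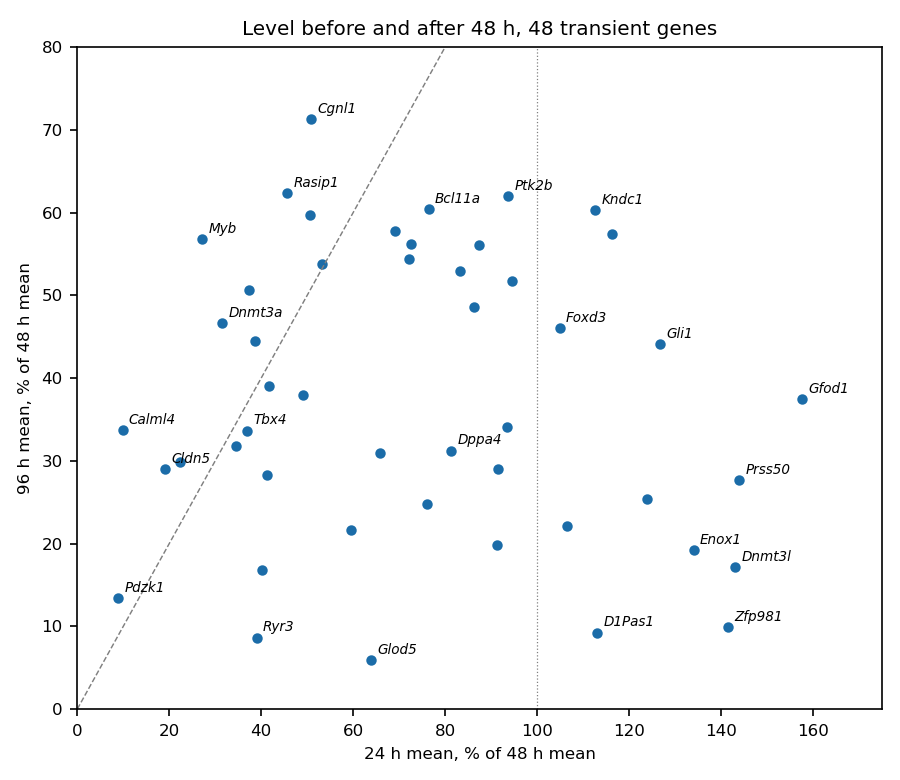
Mean level of each of the 48 genes at 24 h (horizontal axis) and 96 h (vertical axis), both as a percentage of its mean at 48 h. The dashed line marks equal levels, the dotted line marks 100% at 24 h, and each point is a gene. Most points lie right of the dashed line, 12 lie above it, and 12 lie right of the dotted line.

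When 2iL was given back after 48 h, all 48 genes had a lower mean than at 48 h. For 43 of them all 48 h + 2iL libraries were below all 48 h libraries (9.38% of all genes). The exceptions were Enox1, Pdzk1, Ptk2b, Ccno and Gli1. These counts rest on the 48 h levels that chose the genes and are a description. No group without 2iL at the same total time was analysed here, and 48 h + 2iL was set against 96 h. Of the 48, 15 were lower and 4 higher than at 96 h, where 13.4% of all genes were lower and 11.3% higher, and the median log2 fold change was -0.56 against -0.01 over all genes. With the libraries of these 2 groups alone, 32 of the 48 passed the count filter, and 11 were lower and 1 higher (13.9% and 12.3% of all genes then tested). The other 16 entered the test through the levels of other groups, 48 h among them, which chose the genes. The genes lower by the most without overlap were Sned1 (-3.29 ± 0.65, adjusted p = 0.000234), Myrf (-2.96 ± 0.53, adjusted p = 7.75e-05), Tor3a (-2.31 ± 0.31, adjusted p = 1.02e-06), Bcl11a (-2.28 ± 0.41, adjusted p = 7.67e-05) and Tbx4. The other genes that were lower were Calml4, Neurod1, Kndc1, Cgnl1, Grhl2, Slc27a2, Gngt2, Rasgrp2, Dnmt3a and Rasip1. The genes that were higher in 48 h + 2iL were Glod5 (2.46 ± 0.57, adjusted p = 0.00138), Pdzk1 (2.20 ± 0.79, adjusted p = 0.0395), Zfp981 (1.70 ± 0.61, adjusted p = 0.0405) and Enox1 (1.54 ± 0.48, adjusted p = 0.0172).

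These calls moved with single libraries. Without experiment 3, 15 of the 48 were lower and 1 (Glod5) was higher, and without the 96 h library of experiment 1 only 9 were lower, with Calml4, Gngt2, Grhl2, Kndc1, Rasip1 and Tbx4 lost. Over all genes 1164 were lower and 1031 higher without experiment 3, and 1402 lower and 1100 higher without that library. Glod5 alone was higher also without the 96 h library of experiment 3 or that of experiment 4, and 2 genes were higher without the 48 h + 2iL library of experiment 1 or 3. Pdzk1 was not called by DESeq2 (adjusted p = 0.0804). Within experiments 1, 2 and 4 the 48 h + 2iL library was the lower of the pair for 40, 38 and 30 genes, and within experiment 3 for 19, with 29 higher.

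After 2iL was returned at 96 h, 26 of the 48 genes were lower than at 96 h and 1 (Gli1) was higher, where 5.23% of all genes fell and 4.02% rose. The median log2 fold change was -1.57, and over all genes 0.00. These groups also differ by 24 h of culture. At the matched total time, the mean in 96 h + 2iL was above the 120 h mean for 13 of the 48 genes, which is a description since 120 h chose the genes. The share over all genes was not computed for this count. The genes with the largest falls without overlap were Calml4 (-4.16 ± 1.07, adjusted p = 0.0104), Tbx4, Myrf (-3.48 ± 0.58, adjusted p = 0.000119), Sned1 (-3.45 ± 0.67, adjusted p = 0.000805) and Tor3a (-3.14 ± 0.35, adjusted p = 1.86e-07). For Bcl11a the log2 fold change was -2.66 ± 0.43, for Neurod1 -2.45 ± 0.41 and for Nefh -2.43 ± 0.27 (adjusted p = 9.27e-05, 0.000137 and 2.93e-07). The other genes that fell were Foxd3, Rasgrp2, Grhl2, Cgnl1, Pla2g10, Slc27a2, Rasip1, Gngt2, Urah, Dnmt3l, Myb, Dppa4, Exoc3l, Platr17, Slc7a7, Ptk2b, Dnmt3a and Rarg. Genes with no call included Glod5 (-0.03 ± 0.73, adjusted p = 0.989) and Gfod1 (-0.11 ± 0.59, adjusted p = 0.942), which were at 5.87% and 37.4% of their 48 h means at 96 h. Within experiments 1 to 4 the 96 h + 2iL library was the lower of the pair for 44, 46, 34 and 43 genes, and without experiment 3, 28 genes fell, all 26 among them, and 1 rose. Over all genes 588 fell and 535 rose without experiment 3. When only the libraries of these 2 groups were fitted, the count filter left 27 of the 48 to test, without Tbx4, and 16 fell and 1 rose (4.38% and 2.84% of all genes then tested). The others entered the main test through the levels of other groups, 48 h among them, which chose the genes. Of the largest falls named above, those of Calml4, Tbx4 and Sned1 were not called in the fit of these 2 groups.

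The returns after 48 h and after 96 h were also compared directly. These groups also differ in total time of culture and in the level from which they started. The median gene was at 35.8% of its 48 h mean at 96 h. A difference in the response to 2iL cannot be told apart from these. Of the 48 genes, 14 were higher in 48 h + 2iL than in 96 h + 2iL and 0 were lower (11.2% of all genes were higher and 12.9% lower), and the median log2 fold change was 0.94 against 0.01. With the libraries of these 2 groups alone, 24 of the 48 passed the count filter, and 11 were higher and 0 lower (11.6% and 13.3% of all genes then tested), with Enox1, Pla2g10, Prr19 and Zfp981 not called. The others entered the main test through the levels of other groups, 48 h among them, which chose the genes. At an unadjusted p under 0.05, 23 of the 48 were higher and 1 lower (17.2% and 18.4% of all genes). DESeq2 called 17 higher and 0 lower (11.5% and 14%). In this comparison 8 of 11 tested neural progenitor genes were lower and 1 higher (median -3.64), and 15 of 16 naive genes were higher and 0 lower (median 2.08). The largest differences without overlap were in Zfp981 (3.84 ± 0.83, adjusted p = 0.000809, with a count in only 1 library of 96 h + 2iL), Glod5 (2.50 ± 0.58, adjusted p = 0.00183), Urah (2.32 ± 0.58, adjusted p = 0.00323), Dnmt3l (2.30 ± 0.47, adjusted p = 0.000429) and Platr17 (2.27 ± 0.38, adjusted p = 3.74e-05). In Urah the libraries were at 14.2, 14.4, 11.99 and 12.8 CPM in 48 h + 2iL and 4.97, 3.33, 1.003 and 1.26 CPM in 96 h + 2iL. Dnmt3a was not called (0.07 ± 0.21, adjusted p = 0.841), and the differences of Sned1, Ryr3 and Prss50 were also smaller than their standard errors. Without experiment 3, 15 were higher, 11 of the 14 among them (Pla2g10, Prr19 and Rasip1 were lost), and Gli1 was lower (-1.73 ± 0.38, adjusted p = 0.00132), where with all libraries Gli1 was at -1.06 ± 0.43, adjusted p = 0.0719. Over all genes 922 were higher and 1139 lower without experiment 3. The 48 h + 2iL library was the higher of the pair for 35, 33, 37 and 40 genes in experiments 1 to 4.

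**Figure D4:**
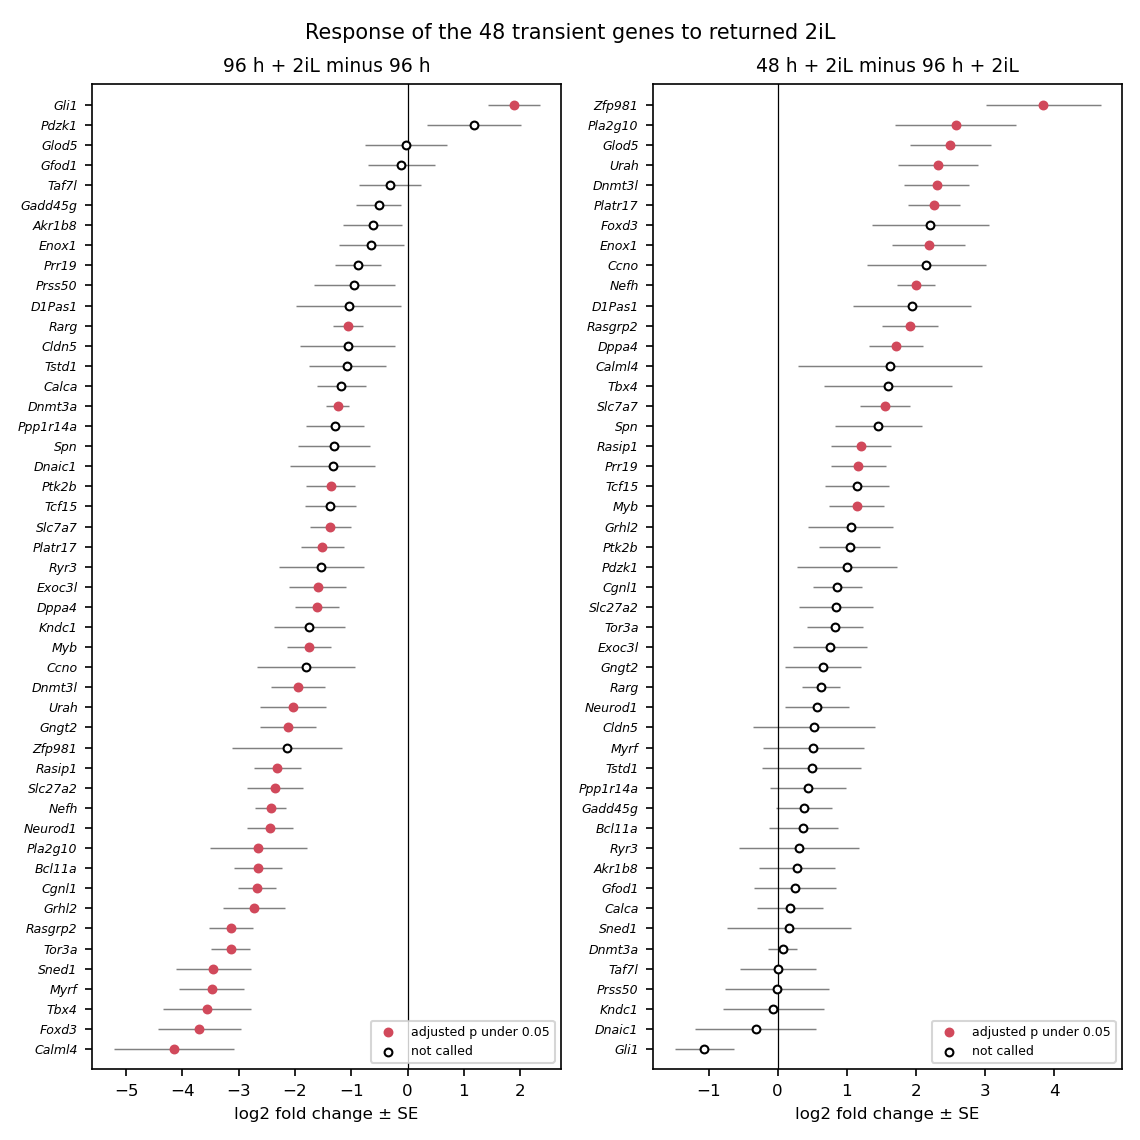
Log2 fold change with its standard error (horizontal axis) for each of the 48 genes (vertical axis), for 96 h + 2iL minus 96 h on the left and 48 h + 2iL minus 96 h + 2iL on the right, from the edgeR fit to all 28 libraries. Filled points have an adjusted p under 0.05. On the left 26 filled points lie below 0 and Gli1 above it, and on the right all 14 filled points lie above 0.

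Levels after the return were then set beside those before withdrawal, as a description, since 2iL chose the genes. The mean in 48 h + 2iL was above the 2iL mean for 40 of the 48 genes, and in 14 of them every 48 h + 2iL library was above every 2iL library (8.78% of all genes), Spn, Tbx4, Neurod1, Bcl11a and Dnmt3a among them. The mean in 96 h + 2iL was above the 2iL mean for 24 genes. For these counts of means the share over all genes was not computed. Every 96 h + 2iL library was below every 2iL library for 9 genes (15.3% of all genes), namely Glod5, Nefh, Tcf15, Rasgrp2, Dppa4, Foxd3, D1Pas1, Zfp981 and Platr17. Every library was above for 5 (21% of all genes), namely Neurod1, Gadd45g, Gfod1, Gli1 and Dnmt3a.

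Genes of the pathways that 2iL acts on were read in the same tests. Over all genes 5.23% were lower and 4.02% higher in 96 h + 2iL than at 96 h, and 13.4% lower and 11.3% higher in 48 h + 2iL than at 96 h. Of 14 tested feedback and target genes of ERK, the kinase below MEK, 7 fell and 0 rose in 96 h + 2iL against 96 h (median log2 fold change -1.26). In 48 h + 2iL, 7 were lower and 1 higher than at 96 h (median -1.13). None of the 14 is among the 48. Dusp6, an ERK phosphatase, was at 46.7 ± 7.79 CPM at 96 h, 7.14 ± 1.57 CPM in 48 h + 2iL and 6.23 ± 3.02 CPM in 96 h + 2iL (SD, n = 4). Of 16 naive pluripotency genes, 16 were higher in 48 h + 2iL than at 96 h (median 3.20). In 96 h + 2iL against 96 h, 7 rose and 0 fell (median 1.27). Of 11 tested neural progenitor genes, 4 rose and 1 fell in 96 h + 2iL against 96 h (median 0.49). In 48 h + 2iL, 8 were lower and 1 higher than at 96 h (median -3.61). The cells of 48 h + 2iL had not been through 96 h of withdrawal. The 15 listed neural progenitor genes summed to 48.9 to 73.6 CPM at 48 h, 78.3 to 123 CPM in 48 h + 2iL and 169.6 to 554 CPM at 96 h.

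Some genes lay near the thresholds of the rule. With the 3 libraries of each group outside experiment 3, 35 of the 48 met it, and Cgnl1, Dnmt3a, Rasgrp2 and Gli1 were among the 13 that did not. Just inside the level at 48 h were Cldn5 (10.1 CPM), Gfod1 (10.2) and D1Pas1 (11.6), and just outside were Capn3 (9.75), Foxn4 (9.68) and Xist (9.49). In the ratio to 2iL, Platr17 (3.00), Zfp981 (3.00) and Gli1 (3.12) were just inside and Optn (2.85), Dpf1 (2.78) and Tgm3 (2.70) just outside. In the ratio to 120 h, Slc27a2 (3.01), Dnmt3a (3.09) and Gngt2 (3.10) were just inside and Slc39a14 (2.88), Esrp1 (2.87) and Enpp3 (2.81) just outside. Of the 6 genes left out by symbol, Utf1 had by far the highest level, at 62.1 ± 23.8 CPM in 2iL, 512 ± 38.7 CPM at 48 h and 85.6 ± 70.1 CPM at 120 h (SD, n = 4).

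The 48 genes lie on 18 chromosomes, and all are protein coding in GENCODE M21. Only Kndc1 and Urah, on chromosome 7, lie within 1 Mb of each other, with 893481 bases between them. Another gene overlaps 6 of them on the same strand and 23 on the opposite strand, Aire at Dnmt3l and Aven at Ryr3 among the latter. Whether reads were counted by strand is not given in the sources used here, so reads of overlapping genes may be mixed. All 48 passed the count filter for the tests. A level of 10 CPM is 15.5 counts in the smallest library and 28.3 in the largest, and 0 counts allow a level of up to 1.93 and 1.06 CPM there (3 counts, counting error only).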

How the data were processed

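The data are 28 digital 3′ mRNA libraries of E14 cells in 7 groups of 4. Per the submitters' processing notes the tools were bcl2fastq, STAR 2.6.0a and HTSeq with the build mm10, with no role or order stated. The deposited files hold raw gene counts (31053 genes per library) and a table of CPM, a common library size (30386 genes), which equals those counts scaled by their library sum in 28 of 28 columns within 1e-06. Of all deposited entries, gene counts and unassigned ones together, 52.3% to 60.1% were marked as not uniquely aligned and were not assigned to a gene. Whether these entries are reads or single alignments of reads is not stated. Levels are the CPM the authors deposited. Tests used edgeR 4.0.16 (R 4.3.3) on the counts: TMM scaling, the default count filter (11080 genes kept), 1 fit over all 28 libraries, 2-sided quasi-likelihood tests and Benjamini-Hochberg adjustment, with a threshold of 0.05. Alternatives used DESeq2 1.42.0, other scalings and filters, a replicate block and left-out libraries. On simulated counts 46% to 51% of 2-fold and 82% to 88% of 4-fold changes were recovered. The members, lists, tests and motifs were chosen with earlier results of these data known. Named genes are Tbx4, the 20 largest ratios, the 5 largest called rises and falls per comparison without overlap, those nearest a threshold, list members and the extremes at each time, with others named by function after their values were seen. Comparisons share libraries, so no overlap between them is given.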

Additional observations from a re-analysis of the deposited data

Results flagged for a closer look

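The Dixon ratio was computed for the 20 genes with the largest ratios, in groups with at least 20 counts of the gene. It was also computed for the summed level of the 48 genes in each of the 7 groups. In 6 of these 103 sets of 4 libraries, 1 library lay far from the others, and chance alone marks about 1 in 20. The rest of the 48 genes were not screened singly. Spn at 24 h was high in experiment 2 (12.99 CPM). Grhl2 in 48 h + 2iL was low in experiment 3 (5.37 CPM). Sned1 at 120 h was high in experiment 1 (7.98 CPM), and Enox1 in 2iL was high in experiment 1 (5.63 CPM). Gadd45g was low in experiment 1 at 24 h (23.7 CPM) and at 48 h (78.4 CPM).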

How the results depend on the processing

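Over all alternatives run, no log2 fold change printed in the report for 1 of the 48 genes changed sign with a call. Those printed for Cdx2, Tfap2c, Tbx3 and T, which are not among the 48, were not checked in this way. Of the genes called higher at 96 h than at 24 h, there were 2 with library totals, 3 with no count filter, 3 without experiment 3 and 0 to 2 when each library of these groups was left out. In 96 h + 2iL against 96 h, 16 genes fell when these 2 groups alone were fitted, with 27 genes tested. In 48 h + 2iL against 96 h, 1 gene was higher with these 2 groups alone, 1 without experiment 3 and 1 to 3 when each library was left out, and 9 to 16 genes were then lower. In 48 h + 2iL against 96 h + 2iL, Gli1 was the 1 gene called lower with no count filter and without experiment 3, and 0 to 1 genes were lower when each library was left out. The cause was not tested. With a ratio of 2 in place of 3 the rule took 113 genes and with 4 it took 27, and it took 38 to 60 when each experiment was left out. Calls lost under at least 1 alternative, in some because the gene was then not tested, were those of Myb, Foxd3, Spn and Tor3a at 96 h against 24 h. In 96 h + 2iL against 96 h they were those of Calml4, Dppa4, Exoc3l, Foxd3, Pla2g10, Platr17, Ptk2b, Slc7a7, Sned1, Tbx4 and Urah, and in 48 h + 2iL against 96 h those of Enox1, Pdzk1, Zfp981, Calml4, Gngt2, Grhl2, Kndc1, Rasip1, Slc27a2, Sned1 and Tbx4. In 48 h + 2iL against 96 h + 2iL they were those of Enox1, Myb, Pla2g10, Prr19, Rasip1 and Zfp981. Calls were gained under at least 1 alternative by Calml4, Cgnl1, Dnmt3a, Calca, Kndc1 and Rasgrp2 in the first comparison and by Calca, Kndc1, Ppp1r14a and Tcf15 in the second. In the third they were gained by Platr17, Calca, Dnaic1, Exoc3l and Foxd3, and in the last by Ccno, Cgnl1, D1Pas1, Exoc3l, Foxd3, Ptk2b, Rarg, Spn, Tcf15 and Gli1. Leaving out experiment 3 was chosen after seeing the data. The main fit did not take the experiment numbers as pairs, and a replicate block was run as an alternative. Correlations of same-numbered libraries ran from 0.0263 to 0.408, and not all passed 0.1. With a replicate block the counts of genes higher and lower were 1 and 24 at 96 h against 24 h, 1 and 28 in 96 h + 2iL against 96 h, 5 and 17 in 48 h + 2iL against 96 h, and 18 and 0 in 48 h + 2iL against 96 h + 2iL. Over all genes, in the same order, they were 2253 and 1932, 616 and 723, 1434 and 1648, and 1453 and 1556. In 96 h against 24 h each library correlated best with its own number in 4 of 4 experiments, and in the other comparisons in 3 of 4. At these depths 46% to 51% of simulated 2-fold changes were recovered, so a missed call does not show that a gene did not change.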
